A study of Mus musculus with 125 samples.

Results

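Mouse parthenotes are embryos that develop from an egg without a paternal genome, and those described here differ in an index of ribosome assembly transcripts by which they were chosen. Of the 31 C57BL/6 parthenotes of the series, 20 were selected on an index of their own RNA levels, the mean log2(CPM + 1) of Tsr1, Wdr43, Wdr12, Nolc1, Npm1, Nop16, Nop56 and Nop58, where CPM is the count of a gene per 1000000 counts of its library. The 10 embryos with the highest index (the high set) were set against the 10 with the lowest (the low set), which makes 20 of the 125 libraries of the series, and 11 parthenotes fell in neither set. The study sequenced single 2-cell embryos to compare zygotes with 1 pronucleus (1PN), zygotes with 2 separate pronuclei (2PN) and parthenotes. The 2PN embryos used here for comparison were hybrids of the strains C57BL/6 and JF1/Ms, 43 labelled C57BL/6 x JF1/Ms and 21 labelled JF1/Ms x C57BL/6. The 1PN embryos of C57BL/6 x JF1/Ms that the submitters called parthenogenetic in silico numbered 8, and those of JF1/Ms x C57BL/6 numbered 4. Per the labels' protocols, hybrid zygotes lost their second polar body by micromanipulation after selection at 10 h, and the 2-cell embryos were taken at 34 h. For the parthenotes the labels state neither the activation, the collection time nor the number of chromosome sets. The stage of parthenotes and 2PN embryos therefore cannot be told apart from their kind.

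Ribosomes are built in the nucleolus, where RNA polymerase I transcribes ribosomal RNA, small nucleolar ribonucleoproteins modify it, and assembly factors fold and trim it into a small and a large subunit. The fertilized egg starts with ribosomes and RNA stored by the oocyte and with nucleolus precursor bodies that make little ribosomal RNA. In the mouse the embryo's own genome is switched on mainly at the 2-cell stage, when stored oocyte RNA is degraded, a short burst of 2-cell transcripts such as the Zscan4 family appears, and genes for ribosome assembly and translation are transcribed strongly.

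The labels were checked on genes that the index did not use. Counts summed over 8 Y-linked genes were between 1 and 23 in each parthenote. They ran from 2 to 1259 in 2PN embryos of C57BL/6 x JF1/Ms (median 570) and from 1 to 1174 in those of JF1/Ms x C57BL/6 (median 6). A low sum therefore does not by itself tell a parthenote from a 2PN embryo. Mcts2, an imprinted gene read from the paternal copy, had a median of 8.15 CPM in the high set, 3.545 CPM in the low set and 65.0 CPM in 2PN embryos of C57BL/6 x JF1/Ms. Markers of the 2-cell stage and of the oocyte were present in both sets: Obox6 had medians of 546 CPM in the high set and 371 CPM in the low set, and Zp3 had 204 CPM and 168 CPM. These examples were chosen after their values were seen. Of 86 oocyte-derived genes tested 72 had a log2 fold change below 0, beside 53.6% of all genes tested. Of 53 2-cell genes 32 did, which lies nearer to that share. Of 19 cumulus and granulosa markers, 15 had a count in some embryo of the high set and 14 in the low set. Their sums were 39.6 to 119 CPM and 44.6 to 159 CPM per embryo. The highest means were those of Amhr2 in the high set (36.4 CPM) and Tnfaip6 in the low set (29.2 CPM). Fshr, Lhcgr, Ptx3 and Ereg were at 0 in all 20, which does not show that RNA of such cells was absent. Of 19 sperm and testis markers, 13 and 16 had a count, with sums of 58.8 to 149 CPM and 71.5 to 204 CPM, and Acrv1 and Crisp2 were at 0. Of 16 blood, immune and other cell markers, 12 and 13 had a count, with sums of 337 to 769 CPM and 295.0 to 871 CPM, of which Epcam, which the embryo also expresses, gave the most, and Cd3e, Col3a1 and Col1a2 were at 0.

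The index ran from 6.11 to 7.13 in the low set and from 7.62 to 7.83 in the high set. The upper cut was very close, since parthenote 28 just inside had 7.619 and parthenote 26 just outside had 7.618. At the lower cut parthenote 21 inside had 7.13 (7.125 before rounding) and parthenote 8 outside had 7.25 (7.245 before rounding). Parthenote 11 stood apart at 6.11, below the next value of 6.87. Between the sets the mean index differed by 0.806, so that a slope per unit of the index, as used below, spans a little more than the distance between the sets. The 2PN embryos of C57BL/6 x JF1/Ms had an index of 8.54 ± 0.278 (SD, n = 43), and 1 of 43 lay at or below the highest parthenote. Of the 21 2PN embryos of JF1/Ms x C57BL/6, 6 did so, and of the 8 1PN embryos of C57BL/6 x JF1/Ms called parthenogenetic, 7 did. All 4 of those called parthenogenetic in JF1/Ms x C57BL/6 did too, and 1 of these 4 lay at or above the lowest parthenote.

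**Figure D1:**
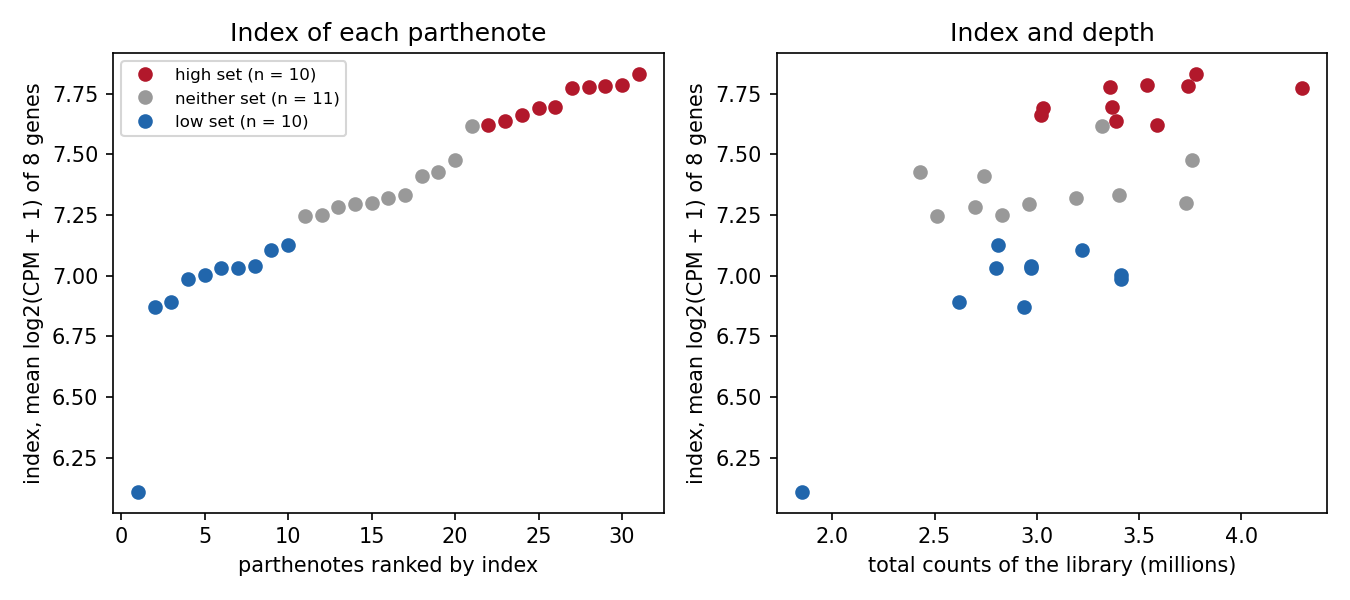
The index (mean log2(CPM + 1) of the 8 genes, y axis) of each of 31 parthenotes is plotted by rank on the left and against total counts (units of 1000000) on the right, each point 1 embryo. The high set lies at 7.62 or above, the low set at 7.13 or below, and parthenote 11 is lowest in both the index and the depth.

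Depth moved with the index. The high set held a median of 3.46 M counts (M, 1000000; range 3.02 to 4.30) and the low set 2.96 M (1.85 to 3.41). Their ranges overlapped, and the mean difference of 0.611 M counts passed a 2-sided permutation test (adjusted p = 0.0179 over 8 library measures). The share of counts from the 50 most counted genes was 14.4% ± 1.72 (SD, n = 10) in the high set and 17.2% ± 3.08 (SD, n = 10) in the low set, which did not pass the permutation test (adjusted p = 0.0903). Mitochondrially encoded genes took 6.07% ± 1.77 (SD, n = 10) and 8.26% ± 3.03 (SD, n = 10) of counts (adjusted p = 0.139 by permutation), and all 13 of these genes had a log2 fold change below 0, with a median of -0.45. With 1 embryo per library, less RNA of a gene per embryo and more of all other RNA cannot be told apart.

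Outside the 8 index genes, 124 of 13492 genes tested were called at an adjusted p under 0.05 by edgeR (0.919%), 83 higher in the high set (0.615%) and 41 lower (0.304%). Since the embryos were sorted on RNA of the same libraries, these calls describe which genes went with the index and are not the effect of a condition. With log2 total counts as a term in the edgeR model 0 genes passed (smallest adjusted p = 0.0658, with 1004 genes at an unadjusted p under 0.05), and all 124 genes had the same sign there. Without that term DESeq2 called 439 higher (3.68% of 11921 genes with an adjusted p) and 509 lower (4.27%), and limma voom 186 (1.38%) and 108 (0.800%). Their number also rested on single embryos, with 13 higher and 2 lower without parthenote 17 and 190 higher and 107 lower without parthenote 30.

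The genes with the largest rise in the high set had varied roles. Clns1a, which binds Sm proteins before they are assembled into spliceosomal particles, had 160 to 796 CPM in the high set with a median of 471, and 29.3 to 232 CPM in the low set with a median of 123. Its log2 fold change was 1.75 ± 0.33 (SE, adjusted p = 0.0227, edgeR), and 8 of 10 high embryos lay above every low embryo. Tada2a, an adaptor of histone acetyltransferase complexes, had 31.97 to 80.99 CPM in the high set and 4.99 to 27.8 CPM in the low set, so the sets did not overlap. Its log2 fold change was 1.83 ± 0.32 (SE, adjusted p = 0.0182, edgeR). Mrpl21, a protein of the mitochondrial ribosome, did not overlap either, with 30.7 to 77.7 CPM against 1.07 to 28.5 CPM. Of the 13492 genes, 5 were higher without overlap (0.0371%) and 2 lower without overlap (0.0148%). Klhl7, a substrate adaptor of a ubiquitin ligase, had medians of 124 CPM and 48.6 CPM and a log2 fold change of 1.56 ± 0.24 (SE, adjusted p = 0.0117, edgeR). The other genes named by the rule were Yif1b, a protein of transport from the endoplasmic reticulum to the Golgi (2.69 on the log2 scale), Neto2, a subunit partner of kainate receptors (2.24), the transcription factor E4f1 (1.79), the G protein regulator Rgs11 (1.78), D16Ertd472e (1.58) and Mcrip2 (1.53). Of the 20 omissions of 1 embryo, 15 ended the call of Neto2, 14 that of E4f1, 7 that of D16Ertd472e, 3 that of Mcrip2 and 1 that of Rgs11.

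Upstream sequence is shown for 4 genes higher in the high set, chosen because their windows hold at least 1 of 2 short motifs. One is CACGTG, the E-box read by MYC and related factors, which is the same on both strands. The other is CCGGAAG, a core read by ETS-family factors, searched on both strands and so also as CTTCCGG. The window was the 200 bases before a RefSeq transcript start in GRCm38.p6, 5′ to 3′ on the strand of the gene, with motif matches in capitals. The windows are at chr7:97696457-97696656 (Clns1a, plus strand), chr11:98026510-98026709 (Rpl19, plus), chr8:107056677-107056876 (Nip7, plus) and chr17:24719863-24720062 (Rps2, plus). Clns1a and Rpl19 held both motifs, and Nip7 and Rps2 held CCGGAAG in one of its orientations. The window before a second RefSeq start of Rpl19 held neither, and neither did that of Ddx21, another gene higher in the high set. The window of Sc5d, which was lower, held CACGTG.
Clns1a: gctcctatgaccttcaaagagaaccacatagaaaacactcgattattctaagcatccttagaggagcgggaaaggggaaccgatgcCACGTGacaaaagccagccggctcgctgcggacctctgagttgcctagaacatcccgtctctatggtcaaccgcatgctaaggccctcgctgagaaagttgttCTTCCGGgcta
Rpl19: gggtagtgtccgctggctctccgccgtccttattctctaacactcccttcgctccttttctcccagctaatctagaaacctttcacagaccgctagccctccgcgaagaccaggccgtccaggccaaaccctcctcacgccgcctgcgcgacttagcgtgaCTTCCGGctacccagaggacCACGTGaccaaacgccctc
Nip7: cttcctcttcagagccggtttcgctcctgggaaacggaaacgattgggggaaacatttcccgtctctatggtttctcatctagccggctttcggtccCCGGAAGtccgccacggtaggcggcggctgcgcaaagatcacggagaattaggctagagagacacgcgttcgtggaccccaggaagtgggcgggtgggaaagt
Rps2: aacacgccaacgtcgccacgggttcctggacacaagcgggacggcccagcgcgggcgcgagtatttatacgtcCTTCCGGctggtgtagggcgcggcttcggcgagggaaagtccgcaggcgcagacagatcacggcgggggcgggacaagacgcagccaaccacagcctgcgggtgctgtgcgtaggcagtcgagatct

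CCGGAAG stood in such a window of 17 of the 64 genes called higher that matched the promoter table (26.6%) and of 1 of the 29 called lower (3.45%). It stood in 50 of 155 matched genes of the ribosome assembly lists (32.3%), taken from 196 listed symbols of which 191 are in the count table, and 17 of 62 ribosomal protein genes (27.4%). The share was 14.7% of the 9206 tested genes with a window and 7.15% of all 27025 genes of the table. CACGTG stood in 9 of 64 genes called higher (14.1%), 3 of 29 called lower (10.3%), 8.77% of tested genes and 6.00% of all. These are counts of letters in a window, with no test, and a gene with several starts counted once.

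The ribosome assembly genes outside the index are described with no test, since the index stands for them. In 4 lists (small-subunit assembly, large-subunit assembly, small nucleolar and nucleolar proteins, RNA polymerases I and III) 185 of 191 genes passed the filter on low counts, and 172 of the 185 had a log2 fold change above 0, beside 46.4% of all genes tested. In 13 it was below 0. Of the 185, 6 were past the threshold, 4 of them in the large-subunit list and 1 each in the nucleolar and polymerase lists, beside 0.919% of all genes, and nothing is read from that count. The median log2 fold change was 0.58 for 54 small-subunit genes, 0.59 for 62 large-subunit genes, 0.46 for 37 nucleolar genes and 0.36 for 32 polymerase genes, beside -0.06 for all genes tested. Nip7, a factor of the large subunit's assembly, had 283 to 618 CPM in the high set with a median of 460 (459.5 before rounding), and 135 to 407 CPM in the low set with a median of 199. Mybbp1a, a nucleolar protein that binds MYB, had the largest log2 fold change of the large-subunit list, 1.42 ± 0.31 (SE). The helicases Ddx18 and Ddx24 had 0.91 ± 0.22 and 0.99 ± 0.23 (SE), and Ddx21, a helicase that joins ribosomal RNA transcription and processing, had 0.97 ± 0.23 (SE) with medians of 106.5 CPM and 52.1 CPM. Taf1a, a subunit of the factor that recruits RNA polymerase I, had 0.86 ± 0.18 (SE), with 243 to 375 CPM against 78.2 to 254 CPM. In the small-subunit list Nob1, the nuclease that finishes the small subunit's RNA, had 0.72 ± 0.19 (SE) and medians of 270 CPM and 156 CPM.

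Genes for the ribosome's own proteins were mostly higher in the high set. Of 83 ribosomal protein genes, all of which passed the filter, 5 rose in the high set and 0 fell. Among all genes tested 0.615% were called higher and 0.304% lower. Of the 83, 81 had a log2 fold change above 0, beside 46.4% of all genes, with a median of 0.57. Rps2, a small-subunit protein, had 146 to 308 CPM in the high set (median 224.5) and 91.5 to 199.5 CPM in the low set (median 130.5), and 9 of 10 high embryos lay above every low embryo. Its log2 fold change was 0.71 ± 0.16 (SE, adjusted p = 0.0346, edgeR). Rpl19, of the large subunit, had medians of 152.5 CPM and 79.9 CPM and a log2 fold change of 1.01 ± 0.22 (SE, adjusted p = 0.0270, edgeR). Rpl39 and Rps3a1 had 0.75 ± 0.15 and 0.73 ± 0.16 (SE), and Rps3 had 1.09 ± 0.27 (SE). Many ribosomal protein genes have near-identical processed copies, and the rule for reads they share was not given in the sources used here. With the depth term the median of the list was 0.215 in place of 0.572, with 72 of 83 above 0.

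Of 50 initiation and elongation factor genes, 0 were called by edgeR, with 23 at an unadjusted p under 0.05. DESeq2 called 11 higher, beside 3.68% of all genes by that tool, and limma voom 7, beside 1.38%. In edgeR's fit 47 had a log2 fold change above 0 with a median of 0.47. Eif3a, the largest subunit of initiation factor 3, had medians of 455 CPM and 238.5 CPM (adjusted p = 0.0583, edgeR). Eif4e, the protein that binds the cap of messenger RNA, had 1389 CPM and 904 CPM (adjusted p = 0.0584, edgeR). Of 21 aminoacyl-tRNA synthetase genes, which charge transfer RNAs with amino acids, 3 rose (Hars, Rars and Eprs), beside 0.615% of all genes. Hars, which charges histidine, had 85.3 to 202 CPM against 27.5 to 105 CPM, and a log2 fold change of 1.24 ± 0.22 (SE, adjusted p = 0.0202, edgeR).

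Among lists for protein turnover, folding and import, the share of all genes called higher, 0.615%, is the background for the counts. Of 43 proteasome genes, 2 rose and 33 had a log2 fold change above 0, with a median of 0.60. Psmd11, a lid subunit of the proteasome, had 216 to 401 CPM in the high set and 106.5 to 272 CPM in the low set, and 8 of 10 high embryos lay above the low set (log2 fold change 0.76 ± 0.17, SE, adjusted p = 0.0293, edgeR). Psmd7, also of the lid, had medians of 368 CPM and 161.5 CPM (1.16 ± 0.26, SE, adjusted p = 0.0306, edgeR). Of 44 chaperonin and heat shock genes 1 rose, Tcp1, a subunit of the chaperonin that folds actin and tubulin, with medians of 592 CPM and 350 CPM (349.8 before rounding). Of 57 nuclear transport genes 2 rose, the importins Ipo7 and Ipo5, with log2 fold changes of 0.97 ± 0.18 and 0.90 ± 0.22 (SE).

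Splicing (59 genes) had a median log2 fold change of 0.29, mitosis (56) 0.23 and DNA replication (52) 0.07. By edgeR 0 splicing genes were called (15 at an unadjusted p under 0.05, 7 called by DESeq2, 2 by limma voom), 0 mitosis genes (18, 3 and 2) and 1 replication gene. The share of all genes called by edgeR in either direction, 0.919%, is the background for the calls of this paragraph. The replication call was Gmnn, the inhibitor of origin licensing, with 954 to 1463 CPM (953.5 before rounding) against 425 to 1036 CPM. Tbp, the TATA-binding protein, rose in the list of 49 RNA polymerase II genes, with 169 to 311 CPM against 93.0 to 191 CPM. Sall4, a transcription factor of pluripotent cells, rose as the 1 call among 21 early lineage genes, whose median was -0.58. The p53 target, stress response and apoptosis lists (25, 22 and 21 genes) had 0 calls by edgeR, with 2, 5 and 3 genes at an unadjusted p under 0.05. DESeq2 called 1 lower among the p53 targets, 1 higher and 2 lower among the stress genes and 0 among the apoptosis genes, and limma voom 0 in each. Their medians lay between -0.11 and 0.07.

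The 41 genes lower in the high set were mixed. Sc5d, a desaturase of the last steps of cholesterol synthesis, had 11.01 to 47.8 CPM in the high set and 40.1 to 210 CPM (209.9 before rounding) in the low set, where 8 of 10 embryos lay above every high embryo. Its log2 fold change was -1.64 ± 0.33 (SE, adjusted p = 0.0227, edgeR). Steap1, of a family of metalloreductases, had medians of 15.6 CPM and 73.2 CPM (-1.92 ± 0.39, SE, adjusted p = 0.0227, edgeR). Adora2b, an adenosine receptor, had the most negative value among the genes the rule names, -2.63 ± 0.65 (SE, adjusted p = 0.0496, edgeR), with 0 to 31.8 CPM against 4.69 to 110 CPM (110.4 before rounding). Its call ended in 15 of 20 omissions of 1 embryo. The others were the glutamate transporter Slc17a7 (-2.52), the polarity protein Pard6g (-2.16), Git1, which acts on ARF proteins (-1.98), the neddylation factor Dcun1d4 (-1.92), Trappc1, of a vesicle tethering complex (-1.89), the transcription factor Pax6 (-1.79) and the GABA receptor subunit Gabrr3 (-1.62). Omissions of 1 embryo ended the call of Pax6 in 16 of 20 cases, of Slc17a7 in 14, Git1 in 11, Pard6g and Gabrr3 in 10 each and Trappc1 in 8. Steap1 kept its call in all 20, and Sc5d and Dcun1d4 in 19. Pfkp, a phosphofructokinase and the 1 call among 23 glycolysis genes, had medians of 23.1 CPM and 78.0 CPM (-1.57 ± 0.34, SE, adjusted p = 0.0271, edgeR). Among all genes tested 0.304% were called lower.

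Of 34 genes of maternal RNA decay, which remove stored messenger RNA, 1 rose and 2 fell, beside 0.615% and 0.304% of all genes. Ythdf2, a reader of methylated RNA that directs its decay, had 271 to 562 CPM in the high set (median 395) and 137 to 282 CPM in the low set (median 213). Its log2 fold change was 0.95 ± 0.16 (SE, adjusted p = 0.0167, edgeR), and 9 of 10 high embryos lay above the low set. Lsm1, of the ring that starts decapping, had 78.0 to 184 CPM in the high set and 187 to 316 CPM in the low set, without overlap (-0.83 ± 0.19, SE, adjusted p = 0.0341, edgeR). Dcp2, the decapping enzyme, had medians of 79.2 CPM and 136 CPM (-0.87 ± 0.21, SE, adjusted p = 0.0496, edgeR).

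**Figure D2:**
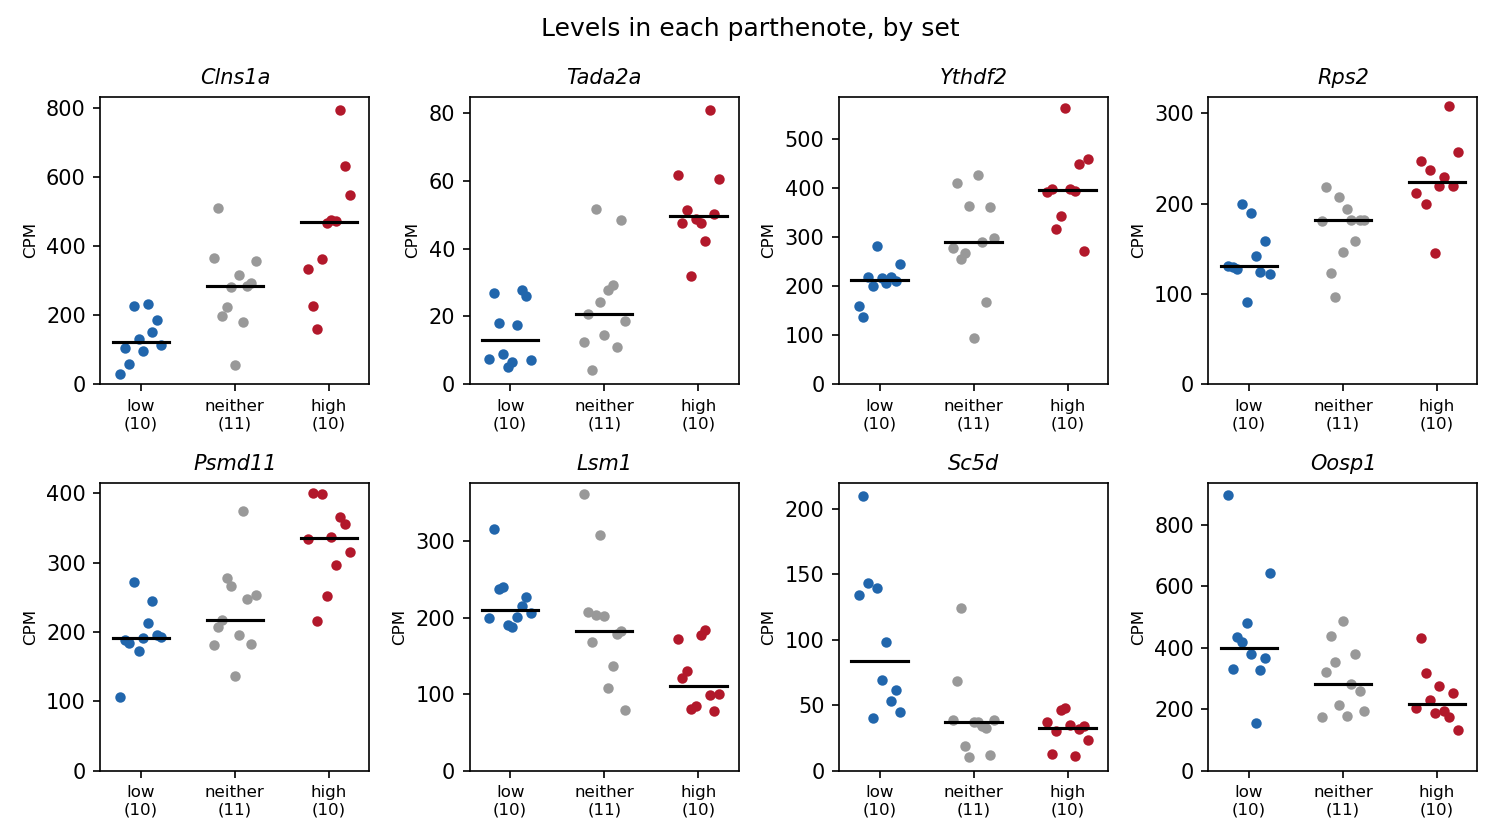
CPM (y axis, from 0) of 8 genes in each parthenote of the low set (10), neither set (11) and the high set (10), with a line at the median. Tada2a and Lsm1 do not overlap between the high and low sets, and Oosp1 does.

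Oocyte-derived transcripts ran the other way as a list. Of 91 genes, 86 passed the filter, 14 had a log2 fold change above 0 and the median was -0.44, beside 46.4% above 0 and a median of -0.06 for all genes. None of the 86 passed edgeR's test (0 at an adjusted p under 0.05, 26 at an unadjusted p under 0.05). DESeq2 called 8 lower, beside 4.27% of all genes by that tool, and limma voom 0. Oosp1, a protein secreted by the oocyte, had 131 to 431 CPM in the high set (median 216) and 156 to 898 CPM in the low set (median 398), with overlap (-0.87 ± 0.25, SE, adjusted p = 0.0742, edgeR). Dazl, an RNA-binding protein of germ cells, had medians of 105.0 CPM and 258 CPM (adjusted p = 0.0681, edgeR). Zbed3, of the subcortical maternal complex, had 1236 CPM and 1949 CPM (adjusted p = 0.102, edgeR). Dppa3, a maternal factor that protects DNA methylation, had the opposite sign, with 3133 CPM and 2325 CPM (adjusted p = 0.0925, edgeR).

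Transcripts of the 2-cell burst held 1 call. Of 53 genes 1 fell by edgeR, beside 0.304% of all genes, and 21 had a log2 fold change above 0. The median was -0.28, which turned to 0.04 with 8 embryos in each set. Gm5039, an Eif1a-like gene of that burst, had 44.3 to 306 CPM in the high set and 42.3 to 869 CPM in the low set, where 7 of 10 embryos lay above the high set (-1.92 ± 0.43, SE, adjusted p = 0.0316, edgeR). Nr5a2, a transcription factor of early genome activation, had medians of 160.5 CPM and 97.3 CPM (0.92 ± 0.25, SE, adjusted p = 0.0702, edgeR).

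Across all 31 parthenotes, ranked embryos included, edgeR called 1013 of 19784 genes with a positive slope on the index (5.12%) and 811 with a negative slope (4.10%), 9.22% in all. Of all genes 45.0% had a slope above 0 and 55.0% below. Of 83 ribosomal protein genes 51 were called positive and 0 negative, and of 89 oocyte-derived genes 1 positive and 8 negative. Of 9 cumulus and granulosa markers that passed the filter, 4 were called negative: Inhbb, Ptgs2, Nr5a1 and Foxl2. In parthenote 11, the lowest in the index, these had 46.6, 5.96, 14.6 and 22.2 CPM, and the highest values of the other 30 parthenotes were 15.5, 36.8, 12.6 and 8.58 CPM. Without parthenote 11, 2 of the 19 markers passed the filter and 0 were called by edgeR. The part of such RNA in the results was not tested. Nothing is read from these counts, since the same embryos were sorted on the index.

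The genes called between the sets were next followed in embryos that the sorting did not use. The index of these embryos was again computed from RNA of the same libraries, so a slope says only that a gene went with the index. In 43 2PN embryos of C57BL/6 x JF1/Ms, edgeR called 1335 of 19297 genes with a positive slope on the index (6.92%) and 1621 with a negative slope (8.40%). With the size factors of DESeq2 in place of TMM the numbers were 1043 and 2113, and the median slope of all genes was -0.29 in place of -0.16. Of the 83 genes higher in the high set, 49 were called positive there (59.0% of the 83 and 3.67% of the 1335), and 81 of 83 had a positive slope, beside 44.6% of all genes. Of the 41 lower genes, 16 of 40 tested were called negative (0.987% of the 1621), all 40 had a negative slope, beside 55.4% of all genes, and none was called the other way. Leaving out the embryo with the lowest index, a choice made after seeing the data, gave 835 positive and 920 negative slopes. In 21 2PN embryos of JF1/Ms x C57BL/6, 2500 of 15783 genes were called positive (15.8%) and 2997 negative (19%), 34.8% in all. There 61 of the 83 (73.5% of them and 2.44% of the 2500) were called positive, and 80 of 83 had a positive slope, beside 44.2% of all genes. Of the 41 lower genes 19 of 38 tested were called negative (46.3% of the 41 and 0.634% of the 2997), and 1 was called positive. Of these 38, 31 had a negative slope, beside 55.8% of all genes.

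Clns1a had a slope of 1.91 ± 0.33 (SE) per index unit in 2PN embryos of C57BL/6 x JF1/Ms (adjusted p = 8.45e-05, edgeR), with 64.4 to 1068 CPM and a median of 524 (523.5 before rounding). Tada2a had 1.58 ± 0.36 (SE, adjusted p = 0.00215, edgeR), Psmd11 1.33 ± 0.22 (SE, adjusted p = 3.96e-05, edgeR) and Sc5d -1.94 ± 0.51 (SE, adjusted p = 0.00681, edgeR). Ythdf2 missed the threshold there (0.97 ± 0.36, SE, adjusted p = 0.0581, edgeR), as did Lsm1 (-0.82 ± 0.30, SE, adjusted p = 0.0525, edgeR). Parthenotes were C57BL/6 only, so strain, number of pronuclei and the paternal genome cannot be told apart between them and the 2PN embryos.

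List by list, the slopes in 2PN embryos of C57BL/6 x JF1/Ms had the same sign as the parthenote contrast for ribosome, translation, proteasome and oocyte-derived genes. Of all genes 6.92% were called positive there and 8.40% negative. Of 188 ribosome assembly genes, 98 were called positive and 0 negative, and nothing is read from that count, since the index stands for them. Of 83 ribosomal protein genes 30 were called positive, 0 negative and the median slope was 0.60, beside -0.16 for all genes. Of 43 proteasome genes 21 were positive and 0 negative, with a median of 0.77. Of 90 oocyte-derived genes 1 was positive and 37 negative, with a median of -1.09, and Oosp1 had -1.80 ± 0.38 (SE, adjusted p = 0.00082, edgeR). In JF1/Ms x C57BL/6, 73 of 83 ribosomal protein genes were positive and 1 negative, and 52 of 88 oocyte-derived genes were negative and 2 positive.

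**Figure D3:**
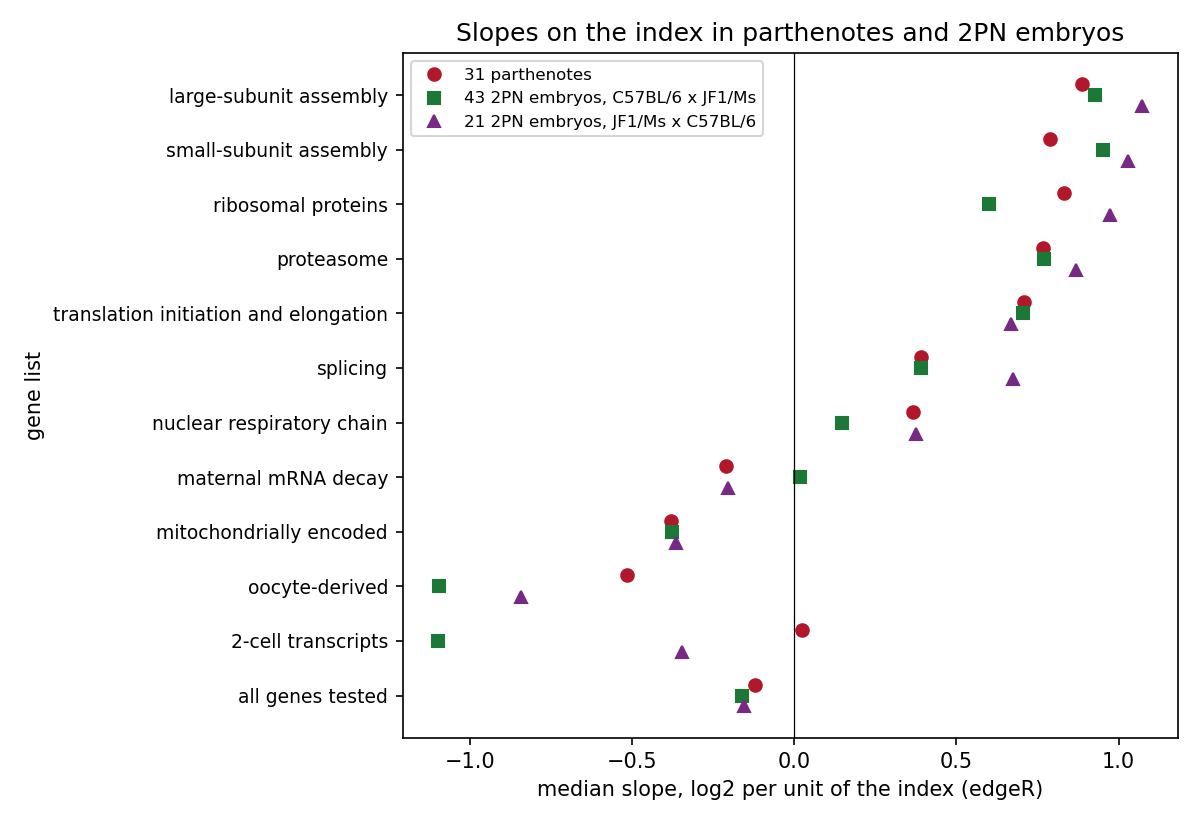
Median slope on the index (x axis, log2 per index unit, edgeR) of 11 gene lists and of all genes tested, in 31 parthenotes (circles), 43 2PN embryos of C57BL/6 x JF1/Ms (squares) and 21 of JF1/Ms x C57BL/6 (triangles). Ribosomal proteins have 0.83 in parthenotes and 0.60 and 0.97 in the 2PN embryos, and 2-cell transcripts have 0.02, -1.10 and -0.35.

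The difference in slope between the 31 parthenotes and the 43 2PN embryos of C57BL/6 x JF1/Ms was tested as an interaction. It was called positive, a slope higher in parthenotes, for 84 of 22171 genes (0.379%) and negative for 68 (0.307%), 0.686% in all. No ribosomal protein, proteasome or oocyte-derived gene was among them (0 of 83, 0 of 43 and 0 of 90 by edgeR). Of 189 ribosome assembly genes 2 were negative, and nothing is read from that count, since the index stands for them. A p above the threshold does not show that slopes were alike. Of 57 genes of the 2-cell list 7 were positive and 0 negative: Zscan4b, Zscan4c, Zscan4d, Zscan4f, Usp17lc, Rfpl4b and Pramef6, which are named after their values were seen. The Zscan4 genes encode zinc finger proteins of the 2-cell burst.

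Zscan4c had 36.4 to 421 CPM in the 31 parthenotes with a median of 147 (146.6 before rounding), and 1.16 to 593 CPM in the 43 2PN embryos with a median of 14.7. Its slope on the index was -0.76 ± 0.57 (SE) in parthenotes (adjusted p = 0.449, edgeR) and -4.98 ± 0.63 (SE) in 2PN embryos (adjusted p = 6.96e-07, edgeR). The slopes differed by 4.23 ± 0.96 (SE, adjusted p = 0.0146, edgeR). Zscan4f had slopes of 0.12 ± 0.65 and -4.41 ± 0.63 (SE), which differed by 4.53 ± 1.00 (SE, adjusted p = 0.0106, edgeR), and medians of 117 CPM (116.6 before rounding) and 14.8 CPM. All 7 calls rested on parthenote 11: without it, a choice made after seeing the data, Zscan4f had a difference of 3.798 (adjusted p = 0.0664, edgeR), Zscan4c 3.47 (adjusted p = 0.0965) and the other 5 an adjusted p of 0.190 to 0.272. By limma voom the difference of Zscan4c was 1.95 (adjusted p = 0.302). The index ranges of the 2 kinds of embryo barely overlap, so the slopes describe different stretches of it.

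The Zscan4 genes are near-identical copies, and the windows of 200 bases before the starts of Zscan4c and Zscan4f are shown for their likeness, at chr7:11005545-11005744 (Zscan4c) and chr7:11397715-11397914 (Zscan4f), both on the plus strand. They share an unbroken run of 99 bases, neither motif is present and all letters are in lower case. These windows lie outside the transcripts, and how reads of the copies were assigned was not tested, so values of single copies are uncertain.
Zscan4c: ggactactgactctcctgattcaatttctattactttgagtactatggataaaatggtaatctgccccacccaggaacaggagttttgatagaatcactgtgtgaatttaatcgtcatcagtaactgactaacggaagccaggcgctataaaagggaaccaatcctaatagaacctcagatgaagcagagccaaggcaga
Zscan4f: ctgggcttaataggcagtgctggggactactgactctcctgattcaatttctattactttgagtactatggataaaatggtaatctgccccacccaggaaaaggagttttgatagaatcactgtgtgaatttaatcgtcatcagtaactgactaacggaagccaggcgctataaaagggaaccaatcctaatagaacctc

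**Figure D4:**
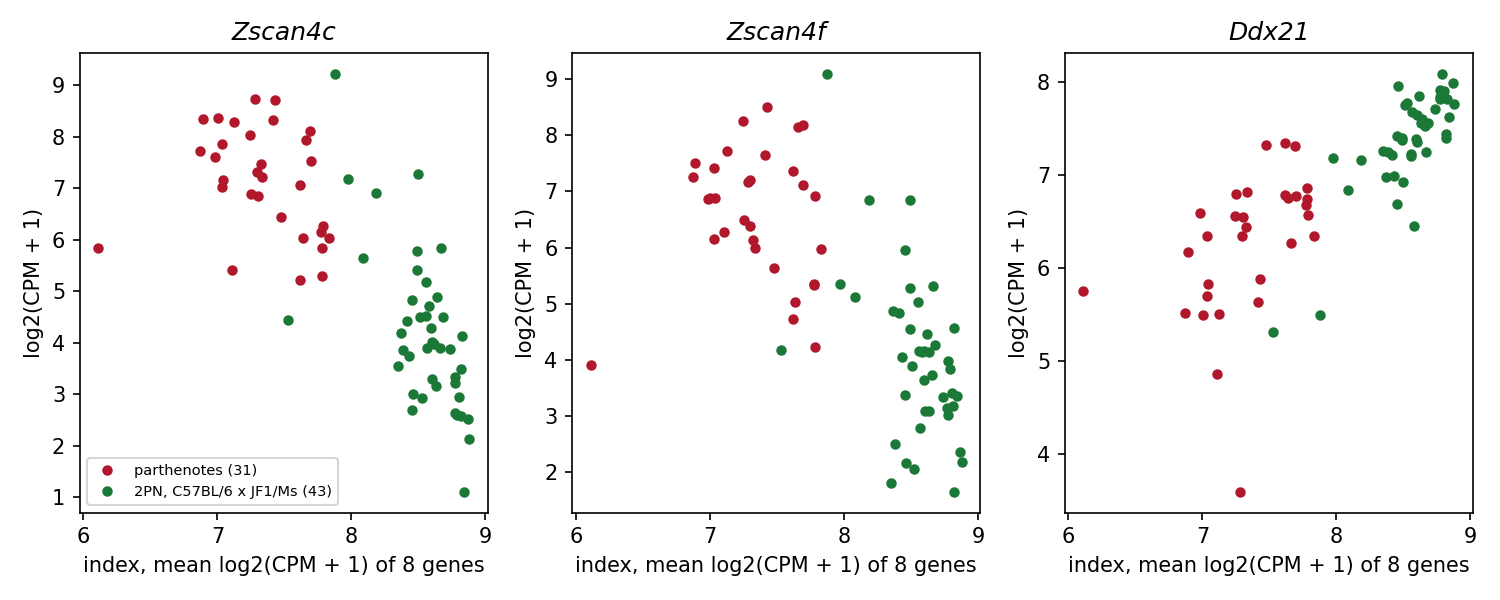
Log2(CPM + 1) (y axis) of Zscan4c, Zscan4f and Ddx21 against the index (x axis) in 31 parthenotes and 43 2PN embryos of C57BL/6 x JF1/Ms, each point 1 embryo. The Zscan4 genes have medians of 147 and 117 CPM in parthenotes and 14.7 and 14.8 CPM in 2PN embryos, and Ddx21 has medians of 86.0 and 170 CPM (169.7 before rounding).

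Negative differences, a slope steeper in 2PN embryos, were found for Tsr2, a partner of a small-subunit protein, and Ddx10, a small-subunit helicase, also named after their values were seen. Both belong to the ribosome assembly lists that the index stands for, so nothing is read from their tests. Ddx10 had slopes of 0.34 ± 0.44 (SE) in parthenotes and 2.56 ± 0.34 (SE) in 2PN embryos, a difference of -2.20 ± 0.55 (SE). The difference was -2.65 without parthenote 11 and -1.89 without the 2PN embryo of lowest index. Nsun2, which methylates transfer RNA, had 0.12 ± 0.31 and 2.16 ± 0.33 (SE), a difference of -2.02 ± 0.44 (SE, adjusted p = 0.00974, edgeR) that held without either embryo. Eif4g1, the scaffold of the cap-binding complex, had -0.43 ± 0.22 and 1.06 ± 0.22 (SE), a difference that was lost without parthenote 11 (adjusted p = 0.359, edgeR).

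For ribosomal protein and oocyte-derived genes, the mean of the high set stood between those of the low set and of the 2PN embryos. The mean log2(CPM + 1) over 83 ribosomal protein genes was 6.47 ± 0.41 (SD, n = 10) in the low set, 7.05 ± 0.29 (SD, n = 10) in the high set and 7.42 ± 0.31 (SD, n = 43) in 2PN embryos of C57BL/6 x JF1/Ms. For oocyte-derived genes the low set had 6.35 ± 0.30 (SD, n = 10) and the high set 5.96 ± 0.35 (SD, n = 10). The 2PN embryos had 5.73 ± 0.57 (SD, n = 43). The 8 1PN embryos of C57BL/6 x JF1/Ms called parthenogenetic had 6.47 ± 0.74 (SD, n = 8) for ribosomal proteins and 6.64 ± 0.45 (SD, n = 8) for oocyte-derived genes. The 4 of JF1/Ms x C57BL/6 lay far below the low set for ribosomal proteins, at 4.33 ± 1.74 (SD, n = 4). For oocyte-derived genes these 4 had 6.64 ± 0.50 (SD, n = 4). Not every list placed the high set between the low set and these 2PN embryos. Aminoacyl-tRNA synthetase genes had 5.479 in the low set, 5.754 in the high set and 5.555 in 2PN embryos of C57BL/6 x JF1/Ms. Chaperonin and heat shock genes had 6.946, 7.066 and 6.946. These levels are descriptions, since the sets were cut on correlated genes.

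Within the 11 parthenotes of neither set, 0 of 17625 genes had a slope on the index that passed edgeR's test, with 399 at an unadjusted p under 0.05 and 0 called by limma voom. These 11 embryos span only 7.25 to 7.62 of the index, and the result does not show that slopes were absent.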

How the data were processed

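RNA of single 2-cell mouse embryos was sequenced from SMART-Seq v4 and Nextera XT libraries, per the labels' protocols. The tools were HISAT2 2.0.5 and featureCounts 2.0.0 with the build GRCm38, per the submitters' processing notes. The authors deposited a table of estimated counts (43421 genes, 125 libraries), where 28.4% of values above 0 were not whole. Annotation release, strand use and treatment of shared reads: not given in the sources used here. They were rounded for testing. The parthenotes held 1.85 to 4.30 M counts (M, 1000000). Embryos labelled dead or of low quality (4) were left out.

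Tests across genes used edgeR 4.0.16 under R 4.3.3 (quasi-likelihood, TMM factors, filterByExpr, Benjamini-Hochberg adjustment, threshold 0.05), as a contrast of 10 against 10 parthenotes and as slopes on the index in other embryos, with an interaction for the difference in slope. Each SE beside an edgeR value was derived from the test, as the absolute log2 value divided by the square root of its F statistic. Index genes stayed out of adjustment and counts. DESeq2 1.42.0, limma 3.58.1 voom and other settings were alternatives. The 8 library measures were compared by 2-sided permutation tests of means (100000 resamples, scipy 1.17.1, Python 3.11.15). The members and lists were chosen with earlier results of these data known. Named genes are the 10 largest changes in each direction past the threshold with a mean of at least 10 CPM and a count in at least 0.5 of the embryos of the higher set, leaving out index genes, pseudogenes and gene models without a proper symbol. To these come the 4 members of smallest p of each list discussed. Of 33 lists, some are not counted in the report. Those held 0 calls in the contrast by edgeR, or 1 (Hprt among 32 nucleotide synthesis genes, Atp5a1 among 72 nuclear respiratory chain genes). Genes outside this rule that are named, such as Obox6, Zp3, Rps3 and those of the slope difference other than Kdm1a and Myc, were chosen after their values were seen. No 2 parthenote libraries agreed within sampling noise (lowest chi-square per gene 17.9). No label says that embryos of 1 group came from separate mothers, so p-values measure the spread between these embryos. The scripts were tested on simulated data. Coordinates and promoter sequences come from RefSeq tables of GRCm38.p6.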

Additional observations from a re-analysis of the deposited data

Results flagged for a closer look

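In 10 of 58 groups of 10 embryos checked, 1 embryo lay farther from the others than Dixon's 95% limit. The groups reuse the same embryos and include the index on which the sets were cut. Their number is therefore not set against a rate expected by chance. Parthenote 11 had the lowest index of the low set at 6.111, its lowest total at 1.846 M counts (M, 1000000) and its highest Trappc1 at 105.1 CPM. Parthenote 20 had the fewest genes with a count in the high set (18230.0), the highest Neto2 (98.9 CPM) and the highest Mrpl21 (77.74 CPM). Parthenote 24 had the highest sum of cumulus and granulosa markers in the high set, 119.3 CPM. Adora2b reached 31.81 CPM in parthenote 30 of the high set. In the low set Pard6g reached 176.1 CPM in parthenote 17 and Neto2 29.78 CPM in parthenote 5.

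The slope on the index differed between parthenotes and 2PN embryos of C57BL/6 x JF1/Ms by edgeR's interaction test (parthenotes minus 2PN, log2 per index unit). The difference was positive for Zscan4b (3.4257), Zscan4c (4.2262), Zscan4d (2.6648), Zscan4f (4.5344), Usp17lc (2.7471), Rfpl4b (2.8452) and Pramef6 (3.8941), none of which passed the test without parthenote 11. It was negative for Kdm1a (-1.8325), a histone demethylase, for the transcription factor Myc (-6.3436), and for Tsr2 (-2.9549), Ddx10 (-2.2034), Nsun2 (-2.0179) and Eif4g1 (-1.4608). Without parthenote 11, Kdm1a and Eif4g1 missed the threshold (adjusted p = 0.106 and 0.359, edgeR), and Myc and Nsun2 passed it. Nothing is read from the tests of Tsr2 and Ddx10, since the index stands for ribosome assembly genes. All of these genes belong to fixed lists, and members of the Zscan4, Usp17l and Pramef families share sequence, so that single copies are uncertain.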

How the results depend on the processing

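No paired analysis was possible because each embryo is a sample of its own and the 10 high and 10 low parthenotes share no number. The 83 higher and 41 lower genes became 19 and 14 with 12 embryos in each set, 15 and 2 with 8, 439 and 509 by DESeq2, 186 and 108 by limma voom, 38 and 18 without the filter on low counts, and 0 and 0 with total counts as a term. A slope over all 31 parthenotes gave 1013 and 811, and 212 and 76 without parthenote 11, an alternative chosen after seeing the data. Leaving out 1 embryo gave 13 to 190 higher and 2 to 107 lower. DESeq2's size factors in edgeR gave 78 and 60, so that 56.5% of calls were higher in place of 66.9%. All 83 and all 41 kept their sign in each of these settings. Of the 20 genes named for their size, 20 lost their call with total counts as a term, 15 with 8 embryos, 13 with 12, 9 without the filter and 5 by limma voom.

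In 2PN embryos of C57BL/6 x JF1/Ms the 1335 positive and 1621 negative slopes became 2087 and 2542 without the filter and 835 and 920 without embryo 27, and DESeq2's size factors moved the positive share from 45.2% to 33%. The libraries of the 2PN embryos of JF1/Ms x C57BL/6 held 0.5333 to 3.925 M counts. There the 2500 positive and 2997 negative slopes became 3448 and 5386 without the filter. They became 1996 and 2376 with total counts as a term, and 2513 and 2680 without embryo 21 of that cross. Of 6 genes checked in that cross, 4 were weaker with total counts as a term and 5 without embryo 21. The difference in slope (84 positive, 68 negative) gave 29 and 21 by limma voom, 54 positive with total counts as a term, 167 positive without 2PN embryo 27, and 30 positive and 61 negative without parthenote 11, which moved the positive share from 55.3% to 33%. The omissions of 2PN embryo 27 and parthenote 11 were chosen after seeing the data, and the cause of these changes was not tested. A gene not called may still differ.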
